A study of Mus musculus with 24 samples.

Results

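The lipid efflux and storage genes are 10 of the 21669 genes in a table of read counts from mouse cells treated with single-walled carbon nanotubes and a CpG oligonucleotide. They were taken by symbol: the liver X receptor genes Nr1h3 and Nr1h2, the exporters Abca1 and Abcg1, the lipoprotein genes Apoe, Pltp and Lpl, the ubiquitin ligase gene Mylip, and the storage genes Soat1 and Plin2. The 24 libraries were made from poly(A) RNA that 2 cell lines yielded once a migration assay had ended. K-Luc is a mouse glioma line, KR158B cells that carry luciferase, and RAW-Blue is a RAW macrophage line that reports NF-κB and AP-1 activity as secreted phosphatase. Each line had 5 groups. SWNT/CpG cells received nanotubes dispersed in the oligonucleotide CpG-28. CpG+SWNT/LP cells received free CpG-28 together with SWNT/LP, which are nanotubes dispersed in a lipid-PEG construct. CpG cells received the oligonucleotide alone, SWNT/LP cells the lipid-coated nanotubes alone, and untreated cells water. Each ingredient was given at 10 µg/mL, after 24 h of adhesion, lasting 17 to 19 h in K-Luc and 47 to 50 h in RAW-Blue, so that line and treatment time cannot be told apart. RAW-Blue had 2 libraries per group, and K-Luc had 3 in each treated group and 2 untreated. Every group of a line is the same cell line, and no group received DNA without CpG motifs. Nothing in the labels says that replicates came from separate cultures, so the p-values measure the spread between these libraries, which may be technical.

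Liver X receptors (LXRα, encoded by Nr1h3, and LXRβ, encoded by Nr1h2) are nuclear receptors that sense oxysterols, the oxidised forms of cholesterol, and bind DNA as partners of the retinoid X receptor. Their known targets include Abca1 and Abcg1, whose proteins pass cholesterol to lipid-poor apolipoprotein A-I and to HDL, and Apoe, Pltp, Mylip and Lpl. Macrophages take up lipoproteins and debris and either export the cholesterol or esterify it and keep it in lipid droplets, and droplet-laden macrophages are called foam cells. SWNT/CpG is compared here with untreated cells and with its separate ingredients, which is the contrast the design sets up.

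Of the promoters of these genes, that of Abca1 is shown because it alone held the LXR element searched for. The window below is the RefSeq promoter of mouse Abca1 on the GRCm38.p6 build, chr4:53159846-53160145 on the minus strand, 250 bases before to 50 after the start. The capitals mark the only match, on either strand, to 2 copies of NGGTNA with 4 bases between them (NGGTNANNNNNGGTNA), a loose form of the direct repeat that LXR and its partner are known to bind.

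Abca1 promoter: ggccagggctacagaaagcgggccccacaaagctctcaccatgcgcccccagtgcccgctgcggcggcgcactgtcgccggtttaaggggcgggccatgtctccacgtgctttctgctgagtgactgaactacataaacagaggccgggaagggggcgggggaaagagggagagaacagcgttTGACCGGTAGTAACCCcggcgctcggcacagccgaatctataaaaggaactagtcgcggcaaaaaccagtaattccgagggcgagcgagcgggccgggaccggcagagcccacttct

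The match lies between bases -67 and -52 from the start, on the strand opposite to the gene. Promoters were in the RefSeq table for 8 of the 10 genes, 11 windows in all, and Abca1 was the only gene of the 8 with a match. Of 32851 mouse promoters of the same length, 236 held a match (0.718%). A match describes the letters alone.

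Library totals were 13.3 to 24.1 M counts in K-Luc and 17.2 to 20.3 M in RAW-Blue. In the median RAW-Blue library all 10 macrophage markers reached 1 CPM (count per 1 M counts of a library), with a sum of 4910 to 5640 CPM, and in the median K-Luc library 2 of the 10 did. Of 8 glial and glioma markers 4 reached 1 CPM in the median K-Luc library, with a sum of 588 to 696 CPM. Gfap, S100b and Fabp7 had medians under 1 CPM, and Olig2 was at 0 in every library. None of the 5 adipocyte markers reached 1 CPM in either line. Some libraries stood apart. The RAW-Blue untreated libraries differed by a chi-square per degree of freedom of 41.3 over genes, against 1.9 to 5.55 in the other RAW-Blue pairs. In K-Luc, pairs that included replicate 1 of a group differed by 7.65 to 13.9, against 2.56 to 3.34 between replicates 2 and 3. Values called in RAW-Blue against untreated cells are therefore given with and without each untreated library. Values that gained a call when an untreated library was left out are given without that library, but not always without the other. Leaving out any RAW-Blue library, or an untreated one in K-Luc, leaves 1 library in that group. The spread then comes from the other groups, so a p-value of such a fit does not measure spread within that group. In bulk RNA, fewer cells of a type and less RNA per cell cannot be told apart.

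The lines used different parts of this gene set. Levels between genes were compared per transcript length, in the authors' RPKM, in untreated libraries. In K-Luc, Plin2, whose protein coats lipid droplets, was highest at 123 RPKM, followed by Soat1 at 22.2 RPKM, Pltp at 13.6, Nr1h2 at 13.0, Mylip at 8.35, Abca1 at 4.45, Apoe at 1.8 and Nr1h3 at 0.1 RPKM (means of 2 libraries). Abcg1 and Lpl were listed at 0 RPKM in every K-Luc library. In RAW-Blue the order was Lpl at 122 RPKM, Plin2 at 78.9, Soat1 at 73.0, Pltp at 45.3, Nr1h2 at 15.9, Abcg1 at 13.2, Mylip at 3.8, Apoe at 3.7, Nr1h3 at 1.6 and Abca1 at 0.6 RPKM. The ranges of neighbours overlapped for Pltp and Nr1h2 in K-Luc, and for Plin2 and Soat1 and for Mylip and Apoe in RAW-Blue. The pair of cholesterol exporters thus stood in opposite order in the lines. Abca1 ranged over 0.2 to 0.8 RPKM in the 10 RAW-Blue libraries and 2.3 to 6.5 RPKM in the 14 K-Luc libraries. Abcg1 ranged over 7.3 to 14.4 RPKM in RAW-Blue, whereas K-Luc had 4 Abcg1 reads over all 14 libraries. K-Luc likewise had 23 Lpl reads in all, and 1 to 13 Nr1h3 reads per library.

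**Figure D1:**
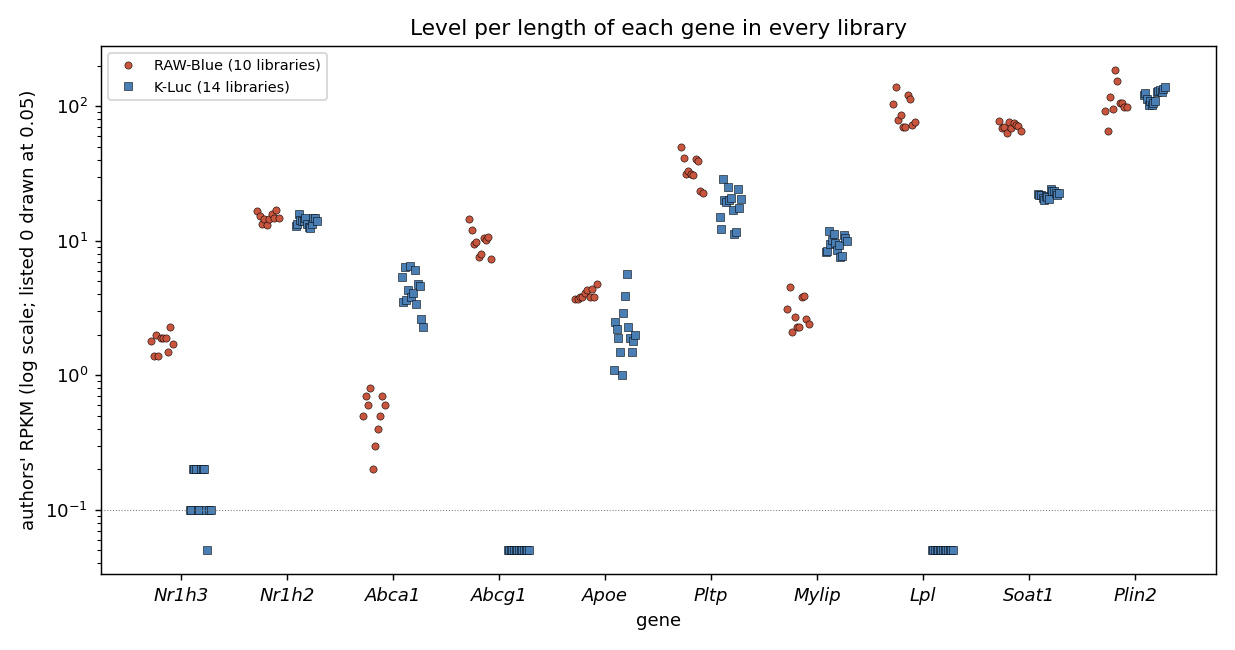
Authors' RPKM (log axis) of each gene in every library, RAW-Blue as circles (10 libraries) and K-Luc as squares (14 libraries), with a listed 0 drawn at 0.05. Abcg1 and Lpl lie at 0 in every K-Luc library, and Abca1 is at 0.2 to 0.8 RPKM in RAW-Blue and 2.3 to 6.5 RPKM in K-Luc.

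Changes were tested on counts with edgeR's quasi-likelihood test and Benjamini-Hochberg adjustment over all tested genes, and a gene was called at an adjusted p under 0.05. All adjusted p-values below are of this kind, two-sided, and fold changes are log2 values with their standard error (SE). All 10 genes were tested in RAW-Blue and 8 in K-Luc, where Abcg1 and Lpl fell under the filter on low counts. Per-library values are CPM after TMM scaling, in replicate order. The treated groups of a line were all set against the same untreated libraries.

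In K-Luc, SWNT/CpG raised 3 of the 8 tested genes and lowered none. The 3 were Pltp, Mylip and Nr1h2, and 43.1% of all 12420 tested genes were called in that comparison. CpG alone raised Pltp and Mylip and lowered Plin2, where 36.2% of all genes were called. CpG+SWNT/LP raised Pltp and lowered Plin2, where 33.9% of all genes were called. SWNT/LP alone gave 0 members at an unadjusted p under 0.05, against 538 over all tested genes. It gave 0 calls among the 8 by edgeR and 0 by DESeq2, and edgeR called 0.129% of all genes. The members' shares, 37.5%, 37.5%, 25% and 0% in that order, were close to or under these backgrounds. The median log2 fold change of the 8 genes was 0.06 for SWNT/CpG, 0.25 for CpG, 0.23 for CpG+SWNT/LP and 0.09 for SWNT/LP, against medians of 0.01, 0.01, 0.01 and 0.00 over all tested genes. Sequencing run 1 held 1 library each of the untreated, CpG+SWNT/LP and SWNT/CpG groups. Within run 2 alone the SWNT/CpG values were 0.66 for Pltp, 0.29 for Mylip and 0.15 for Nr1h2, and none of these calls held (adjusted p = 0.0861, 0.111 and 0.201). In run 2 alone Plin2 stayed called with CpG+SWNT/LP (-0.22, adjusted p = 0.0421), and Pltp and Plin2 with CpG (0.88 and -0.25, adjusted p = 0.0302 and 0.0154). Pltp with CpG+SWNT/LP (0.74, adjusted p = 0.0802) and Mylip with CpG (0.30, adjusted p = 0.09) did not.

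In RAW-Blue the calls were mostly decreases. SWNT/CpG lowered 4 of 10 genes (Abcg1, Pltp, Mylip and Lpl) and raised none, where 10.4% of all 11514 tested genes fell and 23.2% were called either way. CpG lowered Pltp, Mylip and Lpl and raised none, where 5.6% of all genes fell and 10.8% were called. CpG+SWNT/LP lowered Abca1, Abcg1, Pltp, Mylip and Lpl and raised Plin2, where 10.1% of all genes fell and 20.3% were called. SWNT/LP alone gave 0 calls among the 10 by edgeR and 0 by DESeq2, and edgeR called 0.478% of all genes. At an unadjusted p under 0.05 there were 3 members, and 1463 of all 11514 tested genes. The median log2 fold change of the 10 genes was -0.03 for SWNT/CpG, -0.14 for CpG, -0.32 for CpG+SWNT/LP and -0.03 for SWNT/LP, against 0.00 to 0.01 over all tested genes. The members called were 40%, 30%, 60% and 0% in that order. Leaving out a library moved the number of all genes called widely, so member counts of such fits are not given here. Without untreated replicate 1, SWNT/LP gave -0.28 for Lpl and 0.65 for Plin2 (-0.06 and 0.42 with all libraries). Without untreated replicate 2 it gave 0.19 for Lpl and -0.29 for Pltp (-0.19 for Pltp with all libraries).

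**Figure D2:**
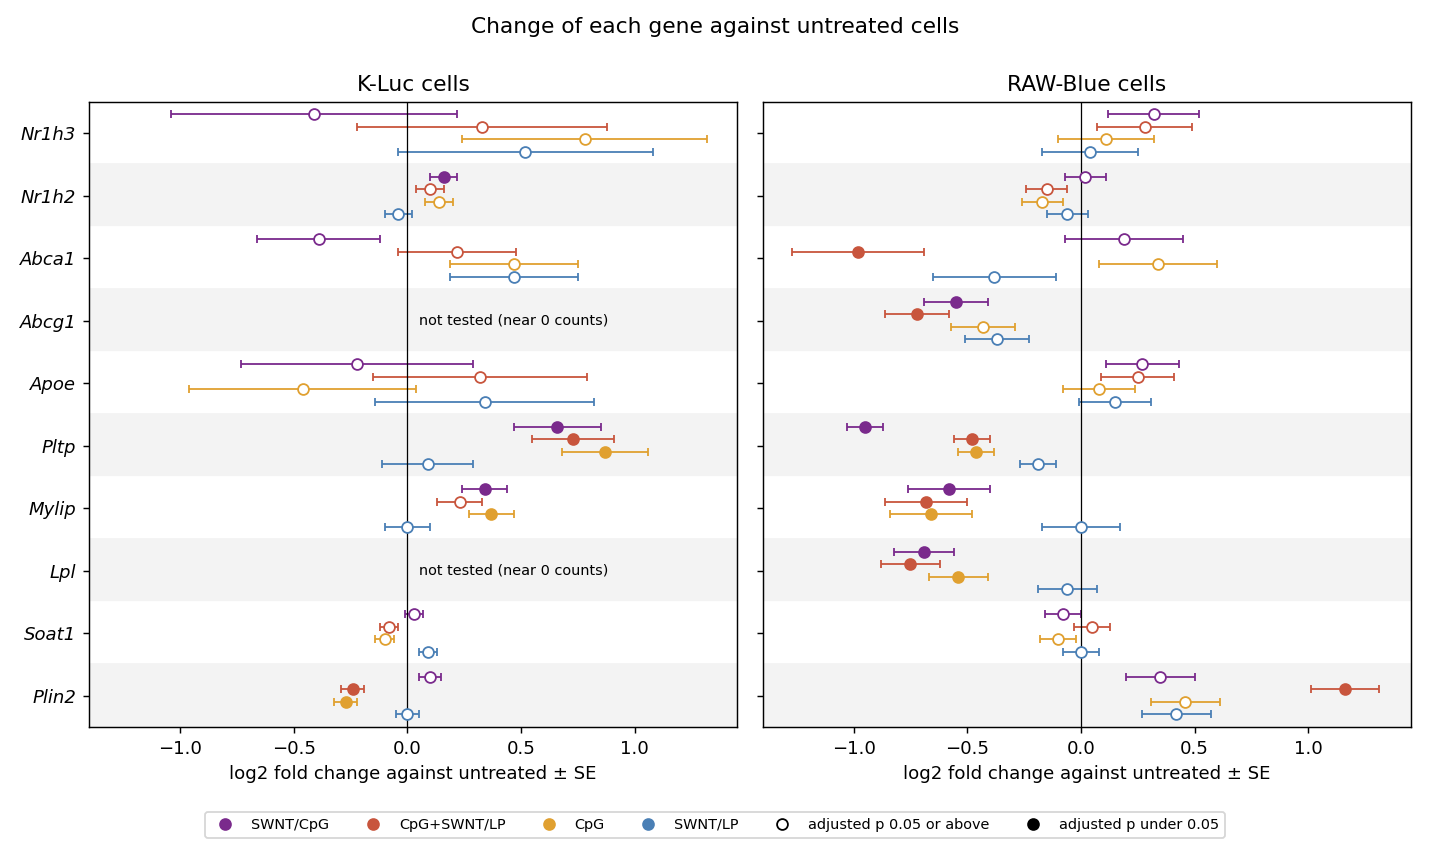
Log2 fold change of each gene against untreated cells (horizontal axis, ± SE) in K-Luc and RAW-Blue cells, with a colour for each treatment and filled points at an adjusted p under 0.05. Pltp and Mylip lie left of 0 in RAW-Blue and right of 0 in K-Luc in the SWNT/CpG, CpG+SWNT/LP and CpG groups, and Plin2 with CpG+SWNT/LP is at 1.16 in RAW-Blue and -0.24 in K-Luc.

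Of the receptor genes, Nr1h2 was called in K-Luc and Nr1h3 in no comparison. Nr1h2 in K-Luc was at 56.6, 58.1 and 55.6 CPM with SWNT/CpG and at 49.5 and 51.2 CPM in untreated cells, and the groups did not overlap. It rose by 0.16 ± 0.06 (adjusted p = 0.0385), a call that DESeq2 did not make (0.16, adjusted p = 0.0887) and that was lost without untreated replicate 1 or 2 (0.16 and 0.18, adjusted p = 0.142 and 0.189), without SWNT/CpG replicate 1 (0.15, adjusted p = 0.133) and without replicate 2 (0.15, adjusted p = 0.097). With CpG alone Nr1h2 was at 59.3, 55.0 and 54.4 CPM, a log2 difference of 0.14 ± 0.06 (adjusted p = 0.0963) that was called with the replicate number as a block (0.16, adjusted p = 0.034). Against SWNT/LP, which had 48.5, 48.2 and 52.3 CPM, Nr1h2 was higher with SWNT/CpG by 0.20 ± 0.06 (adjusted p = 0.00733). In RAW-Blue it ranged over 55.7 to 71.0 CPM in all 10 libraries, and no comparison called it. Nr1h3 was at 7.40 and 5.95 CPM with SWNT/CpG and 5.93 and 4.74 CPM in untreated RAW-Blue cells, a log2 difference of 0.32 ± 0.20 (adjusted p = 0.292). In K-Luc Nr1h3 was at 0.0738, 0.237 and 0.278 CPM with SWNT/CpG, 0.535, 0.513 and 0.469 CPM with CpG, and 0.450 and 0.177 CPM in untreated cells, with at most 13 reads in a library. SWNT/CpG lay below CpG without overlap, a log2 difference of -1.19 ± 0.48 that was not called (adjusted p = 0.113). CpG against untreated cells gave 0.78 ± 0.54 (adjusted p = 0.283).

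Abca1, the exporter that loads lipid-poor apolipoprotein A-I, was lowest with SWNT/CpG in K-Luc. It was at 69.4, 40.5 and 36.1 CPM with SWNT/CpG and at 97.7, 58.0 and 64.0 CPM with CpG+SWNT/LP. It was at 94.7, 54.1 and 65.5 CPM with CpG, 91.0, 52.3 and 72.7 CPM with SWNT/LP, and 82.3 and 53.8 CPM in untreated cells. Replicate 1 was the highest library in every group, so the groups overlapped, but SWNT/CpG was the lowest of the 5 groups at each replicate number. At the same replicate number the ratio of SWNT/CpG to CpG was 0.733, 0.748 and 0.551, and the ratio to SWNT/LP was 0.763, 0.774 and 0.497. The ratio to CpG+SWNT/LP was 0.710, 0.698 and 0.564, and to untreated cells 0.843 and 0.753 at the numbers both groups had.

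Against CpG, Abca1 was lower with SWNT/CpG, at -0.86 ± 0.25 (adjusted p = 0.0452, where 14.9% of all genes were called). Against SWNT/LP it was lower, at -0.86 ± 0.25 (adjusted p = 0.0196, where 41.7% were called). Both values depended on how replicate 1 was treated. CpG and SWNT/LP had no library in sequencing run 1, and without the run term the differences were -0.58 and -0.58 (adjusted p = 0.323 and 0.186). With the replicate number as a block they were -0.57 and -0.59 (adjusted p = 0.00299 and 0.00103). The block also called Abca1 against CpG+SWNT/LP (-0.61, adjusted p = 0.00201, against -0.61 ± 0.23 and adjusted p = 0.112 without it) and against untreated cells (-0.44, adjusted p = 0.0135, against -0.39 ± 0.27 and 0.272 without it). The call against CpG was lost without any 1 of 5 libraries: CpG replicate 1 (-0.59, adjusted p = 0.112) or 3 (-0.92, 0.0678), or SWNT/CpG replicate 1 (-0.90, 0.069), 2 (-0.88, 0.122) or 3 (-0.78, 0.162). The call against SWNT/LP was lost without SWNT/LP replicate 1 (-0.66, adjusted p = 0.0732) or 3 (-0.85, 0.0514), or SWNT/CpG replicate 2 (-0.88, 0.0534) or 3 (-0.78, 0.0746). CpG, SWNT/LP and CpG+SWNT/LP were not called against untreated cells (0.47 ± 0.28, 0.47 ± 0.28 and 0.22 ± 0.26).

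In RAW-Blue the lowest Abca1 values were in CpG+SWNT/LP cells. Abca1 was at 12.0 and 9.55 CPM with SWNT/CpG, 3.56 and 5.97 CPM with CpG+SWNT/LP, 10.0 and 13.8 CPM with CpG, 6.94 and 7.55 CPM with SWNT/LP, and 7.53 and 11.3 CPM in untreated cells. These are 63 to 250 reads per library. CpG+SWNT/LP overlapped none of the other groups and was lower than untreated cells, at -0.98 ± 0.29 (adjusted p = 0.0419). Without untreated replicate 1 the difference was -1.23 (adjusted p = 0.00749), without untreated replicate 2 it was -0.65 (adjusted p = 0.10), and without CpG+SWNT/LP replicate 1 it was -0.66 (adjusted p = 0.227). Against CpG+SWNT/LP, SWNT/CpG cells had a difference of 1.16 ± 0.28 that edgeR did not call (adjusted p = 0.102) and DESeq2 did (1.17, adjusted p = 0.00394). CpG+SWNT/LP against CpG gave -1.31 ± 0.28 (adjusted p = 0.211 by edgeR and 0.00158 by DESeq2). SWNT/CpG, CpG and SWNT/LP were not called against untreated cells (0.19 ± 0.26, 0.34 ± 0.26 and -0.38 ± 0.27).

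Abcg1, the exporter to HDL, was read in RAW-Blue alone. It was at 107 and 77.0 CPM with SWNT/CpG, 77.7 and 85.1 CPM with CpG+SWNT/LP, 98.2 and 101 CPM with CpG, 104 and 104 CPM with SWNT/LP, and 144 and 124 CPM in untreated cells. All 8 treated libraries lay below both untreated ones. Abcg1 fell by 0.55 ± 0.14 with SWNT/CpG (adjusted p = 0.0168) and by 0.72 ± 0.14 with CpG+SWNT/LP (adjusted p = 0.00593). The differences with CpG, -0.43 ± 0.14 (adjusted p = 0.0748), and with SWNT/LP, -0.37 ± 0.14 (adjusted p = 0.325), were not called. DESeq2 called the difference with CpG (-0.43, adjusted p = 0.0376). By edgeR that difference was -0.53 without untreated replicate 2 and -0.32 without replicate 1. The SWNT/CpG value was -0.44 without untreated replicate 1 (adjusted p = 0.102), -0.66 without untreated replicate 2 (adjusted p = 0.0139) and -0.33 without SWNT/CpG replicate 2 (adjusted p = 0.104). The CpG+SWNT/LP value was -0.61 without untreated replicate 1 and -0.83 without replicate 2, and its call was lost without CpG+SWNT/LP replicate 1 (-0.66, adjusted p = 0.0613). No difference between treated groups was called for Abcg1.

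**Figure D3:**
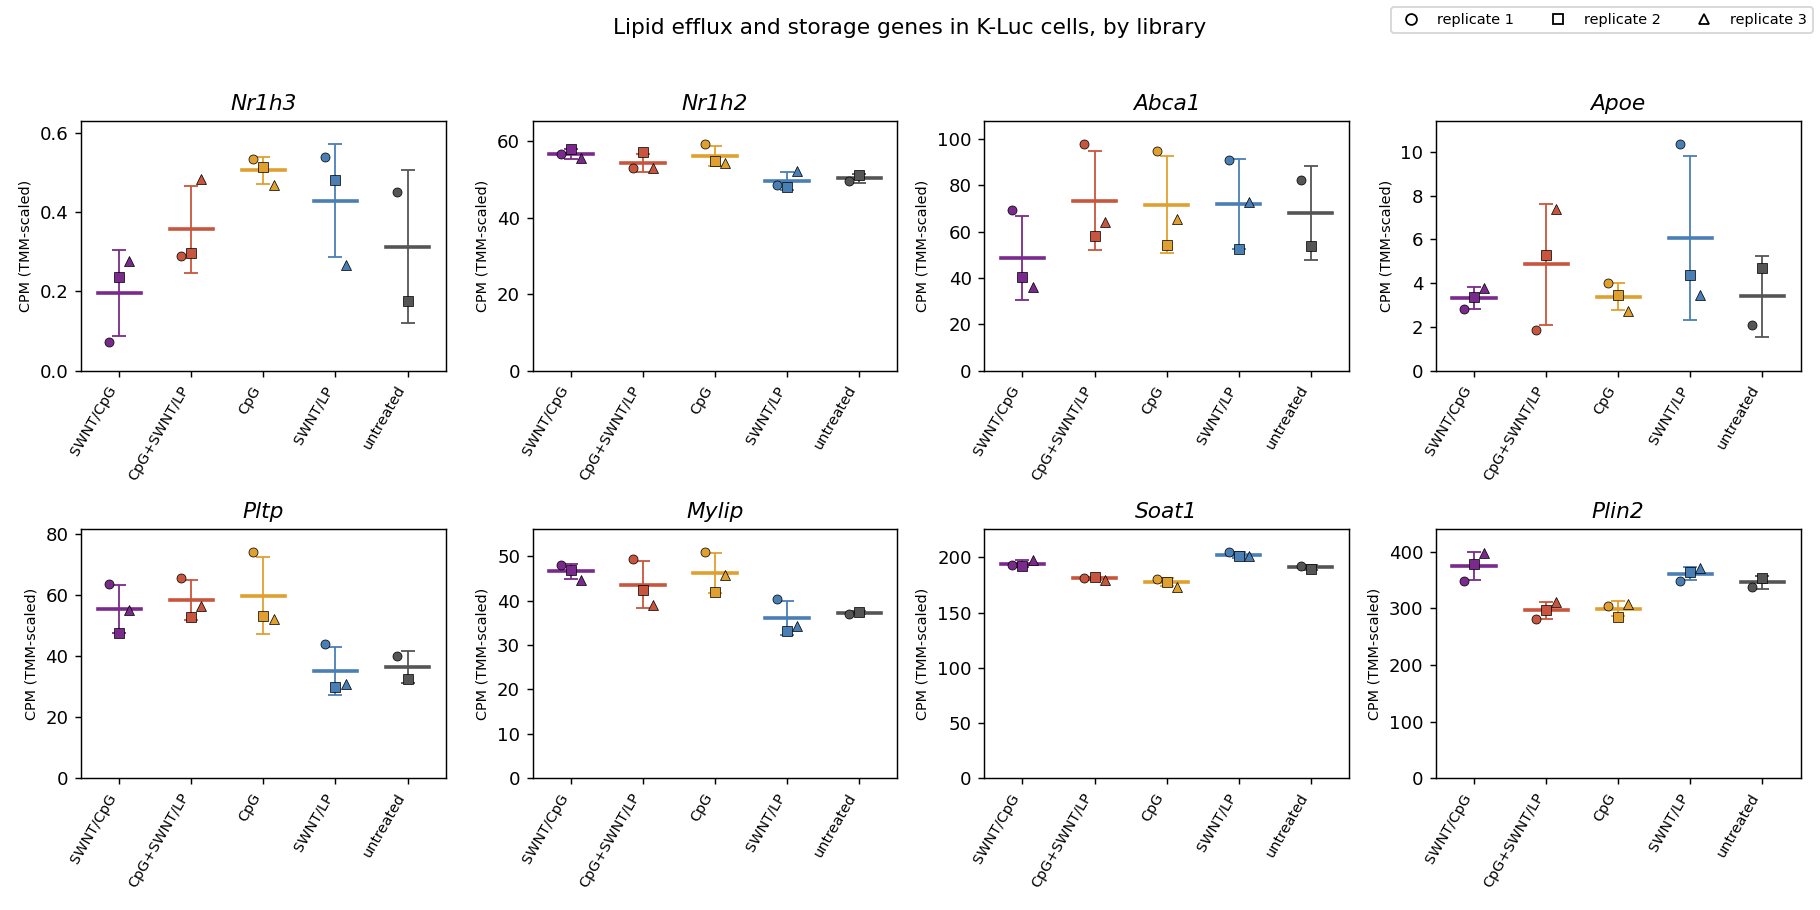
CPM (TMM-scaled) of the 8 tested genes in each K-Luc library, by treatment, with the group mean as a bar, its SD as whiskers (n = 3, untreated n = 2) and a marker for each replicate number. Abca1 is lower with SWNT/CpG than in the other groups at each replicate number, and Plin2 is lower with CpG+SWNT/LP and with CpG (282 to 312 CPM) than in untreated cells (338 and 354 CPM).

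Among the lipoprotein genes, Pltp moved in opposite directions in the lines. Pltp encodes the phospholipid transfer protein, which remodels HDL. In K-Luc it was at 63.6, 47.7 and 55.0 CPM with SWNT/CpG, 65.7, 53.0 and 56.5 CPM with CpG+SWNT/LP, and 74.3, 53.1 and 52.2 CPM with CpG. SWNT/LP cells had 44.1, 30.1 and 30.9 CPM and untreated cells 40.0 and 32.6 CPM, so all 9 CpG-treated libraries lay above the other 5. Pltp rose by 0.66 ± 0.19 with SWNT/CpG (adjusted p = 0.0138), 0.73 ± 0.18 with CpG+SWNT/LP (adjusted p = 0.00992) and 0.87 ± 0.19 with CpG (adjusted p = 0.00501). SWNT/LP gave 0.09 ± 0.20 (adjusted p = 0.981). The SWNT/CpG call was lost without untreated replicate 1 (0.66, adjusted p = 0.0649) or 2 (0.65, 0.122), the CpG+SWNT/LP call likewise (0.74, 0.0588 and 0.72, 0.115), and the CpG call without untreated replicate 2 (0.86, adjusted p = 0.0904). Pdgfrb, which makes up nearly all of the fibroblast and vessel marker sum in K-Luc, moved the same way: the sum of these 6 markers was 554 to 591 CPM with SWNT/CpG, 413 to 451 CPM with CpG+SWNT/LP, 406 to 487 CPM with CpG, 288 to 382 CPM with SWNT/LP and 292 to 369 CPM in untreated cells. The other markers of that list stayed under 1 CPM in the median library, and their part in the Pltp result was not tested.

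In RAW-Blue Pltp fell in the CpG-treated groups, and it separated SWNT/CpG from every other group. It was at 67.7 and 68.4 CPM with SWNT/CpG, 93.1 and 95.2 CPM with CpG+SWNT/LP, 92.7 and 97.8 CPM with CpG, 116 and 115 CPM with SWNT/LP, and 141 and 122 CPM in untreated cells. Pltp fell by 0.95 ± 0.08 with SWNT/CpG (adjusted p = 4.63e-05), by 0.48 ± 0.08 with CpG+SWNT/LP (adjusted p = 0.00295) and by 0.46 ± 0.08 with CpG (adjusted p = 0.00603). The SWNT/CpG value was -0.84 without untreated replicate 1 and -1.05 without replicate 2, and the call held without each library of either group. The CpG+SWNT/LP and CpG values were -0.37 and -0.36 without untreated replicate 1 and -0.58 and -0.57 without replicate 2. The CpG call was lost without CpG replicate 1 (-0.43, adjusted p = 0.0677). SWNT/LP gave -0.19 ± 0.08 (adjusted p = 0.368), which was -0.08 without untreated replicate 1 and -0.29 without replicate 2. SWNT/CpG was also lower than CpG+SWNT/LP, with a log2 difference of -0.47 ± 0.08 (adjusted p = 0.0419, where 0.825% of all genes were called). Against CpG the difference was -0.48 ± 0.08 (adjusted p = 0.0319, where 0.842% were called), and against SWNT/LP it was -0.76 ± 0.08 (adjusted p = 0.000393, where 10.3% were called). The calls against CpG+SWNT/LP and CpG were lost without any 1 library of the compared groups (-0.45 to -0.49 and -0.45 to -0.52). Such a fit leaves 1 library in a group, and it called fewer of all genes than the main fit. In RAW-Blue the glial marker sum, in which 1 of the 8 markers reached 1 CPM in the median library and Olig2 was at 0, was 25.7 to 26.4 CPM with SWNT/CpG and 11.5 to 13.2 CPM in untreated cells. The macrophage marker sum was 5590 to 5640 CPM with SWNT/CpG and 5050 to 5480 CPM in untreated cells. Their part in these results was not tested.

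Lpl, the lipase that releases fatty acids from circulating triglycerides, was the highest of the genes per length in untreated RAW-Blue cells. In the 6 CpG-treated libraries Plin2 was higher per length, for example at 98.1 and 98.5 RPKM with SWNT/CpG, where Lpl was at 72.3 and 76.6 RPKM. Lpl was at 1164 and 1295 CPM with SWNT/CpG, 1164 and 1198 CPM with CpG+SWNT/LP, 1309 and 1413 CPM with CpG, 1938 and 1857 CPM with SWNT/LP, and 1666 and 2294 CPM in untreated cells. All 6 CpG-treated libraries lay below all 4 others. Lpl fell by 0.69 ± 0.13 with SWNT/CpG (adjusted p = 0.00442), by 0.75 ± 0.13 with CpG+SWNT/LP (adjusted p = 0.00385) and by 0.54 ± 0.13 with CpG (adjusted p = 0.0269). The untreated pair was wide. Without untreated replicate 1 the differences were -0.90 with SWNT/CpG, -0.96 with CpG+SWNT/LP and -0.75 with CpG. Without replicate 2 they were -0.44, -0.50 and -0.29. The SWNT/CpG call was lost without SWNT/CpG replicate 1 (-0.62, adjusted p = 0.0534), and the CpG call without CpG replicate 1 (-0.49, adjusted p = 0.17) or 2 (-0.60, 0.109). Against SWNT/LP, whose libraries were close together, SWNT/CpG was lower, at -0.63 ± 0.13 (adjusted p = 0.0134), and so was CpG+SWNT/LP, at -0.68 ± 0.13 (adjusted p = 0.0163, where 4.82% of all genes were called). The first of these was lost without any 1 library of its groups (-0.55 to -0.70), and so was the second (-0.65 to -0.72). Each such fit leaves 1 library in a group and called fewer of all genes than the main fit. SWNT/LP itself gave -0.06 ± 0.13 (adjusted p = 0.851), with a sign that turned with the untreated library left out: -0.28 without replicate 1 and 0.19 without replicate 2.

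Apoe, the apolipoprotein through which remnant particles are taken up, was low in both lines and was never called. In K-Luc it spread widely within groups, at 2.81, 3.36 and 3.80 CPM with SWNT/CpG, 1.88, 5.30 and 7.39 CPM with CpG+SWNT/LP, 3.99, 3.45 and 2.73 CPM with CpG and 10.4, 4.36 and 3.47 CPM with SWNT/LP, against 2.10 and 4.69 CPM in untreated cells. In RAW-Blue it ranged over 7.57 to 10.2 CPM in the 8 treated libraries, against 7.30 and 7.53 CPM in untreated cells. The treated libraries all lay above the untreated ones there, but the largest log2 difference was 0.27 ± 0.16 (SWNT/CpG, adjusted p = 0.267).

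Mylip, also called Idol, encodes the ubiquitin ligase that sends the LDL receptor to degradation. Like Pltp, it was lower in the CpG-treated groups of RAW-Blue and higher in those of K-Luc. In K-Luc it was at 48.1, 46.9 and 44.7 CPM with SWNT/CpG, 49.3, 42.4 and 39.0 CPM with CpG+SWNT/LP, 51.0, 41.8 and 45.7 CPM with CpG, 40.4, 33.2 and 34.3 CPM with SWNT/LP, and 37.0 and 37.5 CPM in untreated cells. All 9 CpG-treated libraries exceeded both untreated ones. Mylip rose by 0.34 ± 0.10 with SWNT/CpG (adjusted p = 0.0116) and by 0.37 ± 0.10 with CpG (adjusted p = 0.0109). CpG+SWNT/LP gave 0.23 ± 0.10 (adjusted p = 0.0741), which the replicate block called (0.24, adjusted p = 0.0101). The SWNT/CpG call was lost without untreated replicate 1 (0.26, adjusted p = 0.134), and the CpG call without untreated replicate 1 (0.30, adjusted p = 0.0797) or 2 (0.50, 0.0561). SWNT/CpG exceeded SWNT/LP by 0.33 ± 0.09 (adjusted p = 0.00663).

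In RAW-Blue Mylip was at 12.4 and 12.3 CPM with SWNT/CpG, 11.3 and 11.7 CPM with CpG+SWNT/LP, 10.1 and 13.3 CPM with CpG, 18.0 and 18.9 CPM with SWNT/LP, and 14.9 and 21.9 CPM in untreated cells. The 6 CpG-treated libraries lay below the 4 others. Mylip fell by 0.58 ± 0.18 with SWNT/CpG (adjusted p = 0.0416), by 0.68 ± 0.18 with CpG+SWNT/LP (adjusted p = 0.0266) and by 0.66 ± 0.18 with CpG (adjusted p = 0.0459). Without untreated replicate 1 the values for SWNT/CpG and CpG were -0.83 and -0.91, and without replicate 2 they were -0.28 (adjusted p = 0.124) and -0.35 (adjusted p = 0.0635). The CpG+SWNT/LP value was -0.93 without untreated replicate 1 and -0.38 without replicate 2. Each of these calls was lost when either library of its treated group was left out, SWNT/CpG at -0.59 and -0.58, CpG+SWNT/LP at -0.66 and -0.71, and CpG at -0.48 and -0.87.

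**Figure D4:**
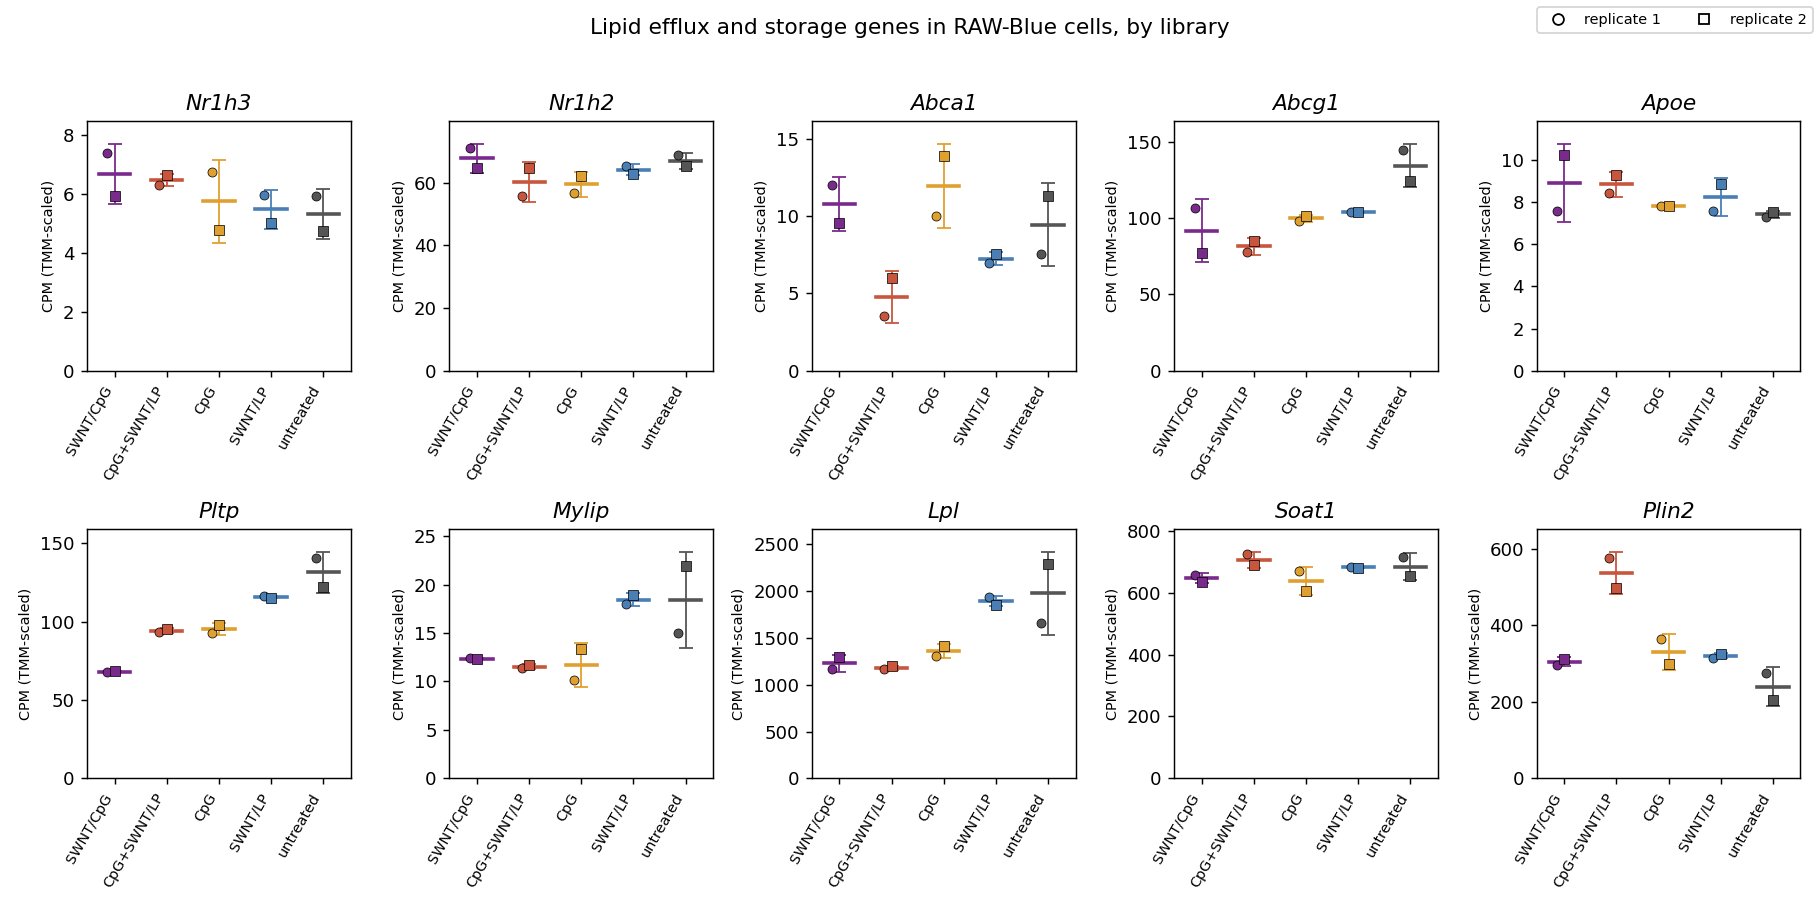
CPM (TMM-scaled) of the 10 genes in each RAW-Blue library, by treatment, with the group mean as a bar, its SD as whiskers (n = 2) and a marker for each replicate number. Pltp is lowest with SWNT/CpG (67.7 and 68.4 CPM), Plin2 is highest with CpG+SWNT/LP (577 and 498 CPM), and the 2 untreated libraries are far apart for Lpl, Mylip and Plin2.

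The storage gene Soat1, whose enzyme esterifies cholesterol for droplets, moved by little. In K-Luc it was at 193, 192 and 198 CPM with SWNT/CpG, 181, 182 and 179 CPM with CpG+SWNT/LP, 181, 178 and 173 CPM with CpG, 205, 201 and 201 CPM with SWNT/LP, and 192 and 189 CPM in untreated cells. The groups with free CpG, with or without SWNT/LP, lay below all the others. Soat1 was higher with SWNT/CpG than with CpG by 0.13 ± 0.04 (adjusted p = 0.023). That call was lost without CpG replicate 2 (0.13, adjusted p = 0.0575) or 3 (0.12, 0.0888), or SWNT/CpG replicate 2 (0.14, 0.065) or 3 (0.11, 0.134). Soat1 was lower with CpG+SWNT/LP than with SWNT/LP, at -0.16 ± 0.04 (adjusted p = 0.00367, where 30.8% of all genes were called). Against untreated cells it was not called, at 0.03 ± 0.04 with SWNT/CpG and -0.10 ± 0.04 with CpG (adjusted p = 0.0663), which the replicate block called (-0.10, adjusted p = 0.0446). The block also called SWNT/CpG against CpG+SWNT/LP (0.10, adjusted p = 0.0312, against 0.053 without it). In RAW-Blue Soat1 ranged over 606 to 725 CPM in all 10 libraries, and no comparison called it with all libraries. With CpG against untreated cells it was at -0.10 ± 0.08 (adjusted p = 0.435), at -0.03 without untreated replicate 1 and at -0.16 without replicate 2.

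Plin2, the droplet coat protein gene, separated the free oligonucleotide from the nanotube-bound one in K-Luc. It was at 348, 379 and 398 CPM with SWNT/CpG, 282, 297 and 312 CPM with CpG+SWNT/LP, and 305, 284 and 308 CPM with CpG. SWNT/LP cells had 348, 364 and 371 CPM and untreated cells 338 and 354 CPM. The 6 libraries with free CpG lay below the 8 others. Plin2 fell by 0.24 ± 0.05 with CpG+SWNT/LP (adjusted p = 0.0015) and by 0.27 ± 0.05 with CpG (adjusted p = 0.00102), and it was not called with SWNT/CpG (0.10 ± 0.05, adjusted p = 0.126) or SWNT/LP (0.00 ± 0.05, adjusted p = 0.994). SWNT/CpG was higher than CpG+SWNT/LP by 0.34 ± 0.04 (adjusted p = 4.59e-05, where 17.7% of all genes were called) and than CpG by 0.36 ± 0.04 (adjusted p = 3.98e-05). CpG+SWNT/LP was lower than SWNT/LP, at -0.25 ± 0.05 (adjusted p = 0.000795). These 5 calls held without each library of the compared groups in turn.

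In RAW-Blue the Plin2 pattern was another one. Plin2 was at 297 and 313 CPM with SWNT/CpG, 577 and 498 CPM with CpG+SWNT/LP, 364 and 298 CPM with CpG, 316 and 326 CPM with SWNT/LP, and 277 and 204 CPM in untreated cells. Both CpG+SWNT/LP libraries lay above the 8 others, and both untreated libraries lay below the 8 treated ones. Plin2 rose by 1.16 ± 0.15 with CpG+SWNT/LP (adjusted p = 0.000908), and the value was 1.40 without untreated replicate 1 and 0.96 without replicate 2. The other groups were not called against untreated cells, at 0.35 ± 0.15 with SWNT/CpG (adjusted p = 0.121), 0.46 ± 0.15 with CpG (adjusted p = 0.0772; 0.0266 by DESeq2) and 0.42 ± 0.15 with SWNT/LP (adjusted p = 0.314). Without untreated replicate 1, the higher of the pair at 277 CPM, these 3 values were 0.59, 0.70 and 0.65. Leaving out replicate 2 instead sets them against that higher library, which makes them smaller. Those values are not given here. SWNT/CpG was lower than CpG+SWNT/LP, at -0.82 ± 0.15 (adjusted p = 0.0445), a call lost without any 1 library of these groups (-0.71 to -0.91). CpG+SWNT/LP was higher than SWNT/LP by 0.74 ± 0.15 (adjusted p = 0.0216), again lost without any 1 library of these groups (0.64 to 0.85). The fits that lost these calls leave 1 library in a group and called fewer of all genes than the main fit. Against CpG, CpG+SWNT/LP gave 0.70 ± 0.15 (adjusted p = 0.201 by edgeR and 0.00144 by DESeq2).

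CpG+SWNT/LP was also set against its parts. Against CpG alone, edgeR called 0 of 8 genes in K-Luc, with 0 at an unadjusted p under 0.05 and 0 by DESeq2, and 0 of 10 in RAW-Blue, with 2 at an unadjusted p under 0.05 and 2 by DESeq2, Abca1 and Plin2. The background was 0.266% of all genes called in K-Luc and 0.13% in the RAW-Blue comparison. The interaction, which asks whether the joint treatment differs from the sum of its parts, gave 0 calls by edgeR among these genes in either line. It called 0% of all tested genes in both lines as well. At an unadjusted p under 0.05 there were 0 members in K-Luc and 1 in RAW-Blue, Abca1 (-0.93 ± 0.39, adjusted p = 0.911). Over all tested genes there were 427 in K-Luc and 419 in RAW-Blue. When RAW-Blue untreated replicate 2 was left out, which leaves 1 untreated library, the interaction was -1.25 for Abca1, 0.27 for Pltp and -0.39 for Lpl. The values without untreated replicate 1 are not given, so these do not show the range. For the interaction DESeq2 called 0 of these genes in both lines. For Plin2 the interaction was 0.28 ± 0.21 in RAW-Blue and 0.02 ± 0.07 in K-Luc.

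The difference between the lines was tested directly, as the RAW-Blue log2 fold change minus the K-Luc one in 1 fit of all 24 libraries. For SWNT/CpG against untreated cells 2 genes were called, where 25.4% of all 13350 tested genes were. They were Pltp (-1.61 ± 0.22, adjusted p = 2.74e-05) and Mylip (-0.92 ± 0.19, adjusted p = 0.00102). For CpG against untreated cells 4 genes were called, where 21.9% of all genes were. They were Pltp (-1.36 ± 0.22, adjusted p = 0.000316), Mylip (-1.04 ± 0.20, adjusted p = 0.000633), Plin2 (0.71 ± 0.15, adjusted p = 0.00194) and Nr1h2 (-0.33 ± 0.12, adjusted p = 0.0444). Pltp and Mylip kept their calls without each library in turn, and so did Plin2. Nr1h2 lost its call without K-Luc untreated replicate 1 or 2, K-Luc CpG replicate 1 or 2, RAW-Blue untreated replicate 1 or RAW-Blue CpG replicate 1 (-0.26 to -0.35). For SWNT/CpG neither Plin2 nor Soat1 was called with all libraries. Plin2 was at 0.51 without RAW-Blue untreated replicate 1 and Soat1 at -0.22 without replicate 2. The values with the other untreated library left out are not given. Abcg1 and Lpl are near 0 in K-Luc, and their differences between the lines are not read.

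Further genes of lipid handling came from a list of 67 genes of sterol sensing, uptake, export, storage and lipolysis, which left out the 10 above. Of these 67 genes 48 were tested in K-Luc and 46 in RAW-Blue. In K-Luc 13 rose and 6 fell with SWNT/CpG, 6 rose and 3 fell with CpG+SWNT/LP, and 8 rose and 3 fell with CpG. These are 39.6%, 18.8% and 22.9% of the tested genes of the list, under the 43.1%, 33.9% and 36.2% of all genes called. With SWNT/LP no gene of the list passed the edgeR test in K-Luc, and 3 had an unadjusted p under 0.05, as had 538 of all 12420 tested genes. In RAW-Blue 8 rose and 9 fell with SWNT/CpG, 7 rose and 11 fell with CpG+SWNT/LP, 7 rose and 6 fell with CpG, and 1 rose with SWNT/LP. These are 37%, 39.1%, 28.3% and 2.17% of the tested genes of the list, where 23.2%, 20.3%, 10.8% and 0.478% of all genes were called. Of the 10 LXR target and efflux genes tested in RAW-Blue none rose and 4 fell with SWNT/CpG, none rose and 6 fell with CpG+SWNT/LP, and 1 rose and 2 fell with CpG. Of the 14 storage and lipolysis genes 7 rose and none fell with SWNT/CpG, 5 rose and 1 fell with CpG+SWNT/LP, and 4 rose and none fell with CpG. Over all tested genes 10.4%, 10.1% and 5.6% fell in these 3 comparisons, of the 23.2%, 20.3% and 10.8% called either way. In K-Luc, of 10 LXR target and efflux genes, 3 rose and 1 fell with SWNT/CpG and with CpG+SWNT/LP. With CpG 2 rose and 1 fell. Of 17 storage and lipolysis genes there, 2 rose and 4 fell with SWNT/CpG. With CpG+SWNT/LP 1 rose and 1 fell, and with CpG 2 rose and 1 fell. The list was drawn up with results of these data known, so the counts are a description, and the difference between the groups of genes was not tested.

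The storage genes that rose in RAW-Blue included Fabp4, which carries fatty acids in fat cells and macrophages. It averaged 39.4 ± 3.02 CPM with SWNT/CpG, 32.6 ± 0.136 CPM with CpG+SWNT/LP, 21.9 ± 2.45 CPM with CpG, and 6.04 ± 0.237 CPM in untreated cells (SD, n = 2 each), and it rose by 2.70 ± 0.15, 2.43 ± 0.15 and 1.85 ± 0.16. Hilpda, an inhibitor of droplet lipolysis, averaged 81.5 ± 2.10 CPM with CpG+SWNT/LP, 59.6 ± 3.13 CPM with SWNT/LP and 30.6 ± 4.61 CPM in untreated cells. It rose by 1.42 ± 0.15 with CpG+SWNT/LP (adjusted p = 0.000331) and by 0.96 ± 0.15 with SWNT/LP (adjusted p = 0.0308). Msr1, a scavenger receptor for modified lipoproteins, rose by 1.25 ± 0.14 with SWNT/CpG and 0.94 ± 0.14 with CpG. Abhd5, the activator of the droplet triglyceride lipase, rose by 0.69 ± 0.09, 0.66 ± 0.09 and 0.50 ± 0.09 with SWNT/CpG, CpG+SWNT/LP and CpG. Lipa, the lysosomal acid lipase that frees cholesterol from its esters, fell by 0.75 ± 0.07 with SWNT/CpG and by 0.52 ± 0.07 with CpG. Scd1, the desaturase that makes monounsaturated fatty acids, fell by 0.66 ± 0.08 with CpG+SWNT/LP. A treatment is listed only where the gene was among the 4 smallest adjusted p-values, so one not listed may also have changed it. With CpG+SWNT/LP, 1 of the 4 tested genes of late endosome export, which include Lipa, fell. Of the 7 tested uptake genes, which include Msr1, 2 rose with CpG+SWNT/LP.

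In K-Luc, Plin4, a droplet coat protein gene of the Plin2 family, averaged 37.9 ± 3.70 CPM with SWNT/CpG, 28.0 ± 6.22 CPM with CpG+SWNT/LP and 27.3 ± 6.12 CPM with CpG (SD, n = 3 each), against 12.3 ± 2.72 CPM in untreated cells (SD, n = 2). It rose by 1.71 ± 0.24, 1.25 ± 0.24 and 1.36 ± 0.25 (adjusted p = 0.000142, 0.00216 and 0.00161), whereas Plin2 fell in the CpG+SWNT/LP and CpG groups. Smpdl3a, known in human cells as an LXR target, rose by 1.38 ± 0.22, 1.33 ± 0.22 and 1.46 ± 0.23 in these 3 groups, and Arl4c, which acts in cholesterol transport to Abca1, fell by 0.42 ± 0.07, 0.52 ± 0.07 and 0.64 ± 0.08. Lrp8, a receptor of the LDL receptor family that Mylip also targets, fell by 0.54 ± 0.06 with CpG+SWNT/LP and by 0.53 ± 0.06 with CpG. Insig1, which retains the sterol regulator in the endoplasmic reticulum, rose by 0.40 ± 0.07 with SWNT/CpG. Here too a treatment not listed may have changed the gene. Of the 6 tested uptake genes, which include Lrp8, 1 fell with SWNT/CpG.

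The genes whose level across libraries was most like that of Abca1 and Plin2 were ranked by Pearson's r of log2 CPM within a line. Among 10964 genes over the 14 K-Luc libraries, Cbx6 (0.938), Napepld (0.903), Etv1 (0.898) and 4933404O12Rik (0.890) were closest to Abca1. Arhgap22 (0.969), Marcksl1 (0.941), Cdr2 (0.941) and Sema7a (0.934) were closest to Plin2. Among 10280 genes over the 10 RAW-Blue libraries, Lyrm9 (0.934), Tmem176a (0.901), Cybb (0.895) and Oxsm (0.895) were closest to Abca1, and Slc39a6 (0.960), Tatdn2 (0.960), Fgfbp3 (0.956) and Frrs1 (0.953) to Plin2. No gene was among the closest 4 of the same target in both lines. The libraries share treatment groups and replicate effects, so these values are a description.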

How the data were processed

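RNA libraries came from poly(A) RNA and a stranded kit, per the labels' protocols. The submitters' processing notes name mm9 as the build, TopHat2 (2.0.14) and HTSeq (0.6.0). Neither the strand setting nor the annotation is given in the sources used here, so reads of overlapping genes may not be separable. The deposited table of raw read counts (21669 genes, 24 libraries) was tested. The authors' deposited RPKM, rounded by them, served only for levels between genes.

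Counts were fitted with edgeR 4.0.16 (R 4.3.3) after TMM scaling and filterByExpr by group (minimum count 10, minimum total 15). The robust quasi-likelihood F test gave p-values, adjusted by Benjamini-Hochberg over every tested gene and called under 0.05. All groups of a line shared 1 fit. K-Luc had group and run terms (8 residual degrees of freedom, biological coefficient of variation 0.0513), RAW-Blue group alone (5 and 0.0859), and both lines together group and run (13 and 0.0659). The fits were also run on simulated counts that held no run or replicate effects, so that check does not bear on such effects here. An SE is the absolute log2 fold change over the square root of F. CpG+SWNT/LP against SWNT/LP and the interaction were added after the counts were seen.

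Same-numbered K-Luc libraries deviated together (26 pairs, r = 0.22 to 0.70, median 0.40), so a fit with the replicate number as a block is given where it changed a call. The run term does not cover replicate 1 of CpG and SWNT/LP, which was in run 2. K-Luc values given without the block may therefore carry the deviation of replicate 1. In RAW-Blue 4 of 20 pairs exceeded 0.1 and the numbers were not taken as pairs. Alternatives were DESeq2 1.42.0, its size factors, no filter, run 2 alone, no run term, only the compared groups, and each library left out. All 10 members are named. Other lipid genes are named if among the 4 smallest adjusted p-values called in a comparison with untreated cells at a mean log2 CPM of 1 or more, and like genes if among the 4 highest r. The members and lists were chosen with earlier results of these data known.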

Additional observations from a re-analysis of the deposited data

Results flagged for a closer look

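A difference between the cell lines was called by edgeR's quasi-likelihood test of the difference itself for 6 values, each the RAW-Blue minus the K-Luc log2 fold change against untreated cells. With SWNT/CpG it was -1.61 for Pltp and -0.92 for Mylip. With CpG alone it was -1.36 for Pltp, -1.04 for Mylip, 0.71 for Plin2 and -0.33 for Nr1h2. Pltp and Mylip fell in RAW-Blue and rose in K-Luc in both treatments. For Plin2 with CpG the RAW-Blue value was 0.46 and not called, and the K-Luc value was -0.27 and called. Treatment lasted 17 to 19 h in K-Luc and 47 to 50 h in RAW-Blue, so line and time cannot be told apart.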

How the results depend on the processing

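Across the 22 comparisons, the 45 called member values kept their sign in all 509 refits and their call in 400. The 155 values not called gained a call in 49 of 1776 refits and changed sign in 121. Lpl in RAW-Blue with SWNT/LP changed sign with the untreated library left out, at 0.19 without untreated replicate 2 and -0.28 without replicate 1 (main value -0.06). The cause was not tested. DESeq2's size factors ended 0 calls. Counts of called members moved as follows, and the number of all genes called moved with the settings too. A changed count is therefore not read as a result about these genes. Run 2 alone left 1 untreated K-Luc library, so its counts against untreated cells are not given. The replicate block gave 5 for K-Luc CpG against untreated (main 3), where 5065 of all genes were called (main 4498). It gave 3 for SWNT/CpG against CpG+SWNT/LP (main 1), where 3018 were called (main 2194). For CpG+SWNT/LP against SWNT/LP it gave 5 (main 3), where 5372 were called (main 3825). Beyond the calls named in the report it added Nr1h2 (0.13) and Mylip (0.28) in the last of these and changed no other K-Luc call. In RAW-Blue, where the numbers do not pair libraries, it gave 4, 4 and 6 for SWNT/CpG, CpG and CpG+SWNT/LP against untreated. It gave 3 for SWNT/CpG and for CpG+SWNT/LP against SWNT/LP. The block called 2548, 1159, 2204, 1150 and 524 of all genes in these comparisons (main 2673, 1241, 2332, 1186 and 555). Without the filter SWNT/CpG against CpG in K-Luc had 1 (main 3), where 1717 of all genes were called (main 1847). DESeq2 gave 5 for RAW-Blue CpG against untreated (main 3), where it called 1156 of all genes (main 1241). For CpG+SWNT/LP against CpG it gave 2 (main 0), where it called 46 of all genes (main 15). Fits of only the compared groups have fewer libraries for the spread. In K-Luc they gave 4 for CpG+SWNT/LP against untreated, where 5217 of all genes were called (main 4213). They gave 3 for SWNT/CpG against CpG+SWNT/LP, where 3695 were called (main 2194), and 1 against CpG, where 1423 were called (main 1847). In RAW-Blue they gave 1, 0 and 2 for SWNT/CpG, CpG and CpG+SWNT/LP against untreated. Of all genes 899, 125 and 443 were called there (main 2673, 1241 and 2332). SWNT/CpG against SWNT/LP had 4, where 3501 were called (main 1186). CpG+SWNT/LP had 2 against CpG, where 176 were called (main 15), and 5 against SWNT/LP, where 2182 were called (main 555). The CpG difference between lines had 1 (main 4), where 571 were called (main 2926). With each library left out, in K-Luc the counts were 1 to 2 for SWNT/CpG against CpG, where 1091 to 1861 of all genes were called. They were 2 to 4 for SWNT/CpG against SWNT/LP, where 3950 to 5883 were called. For CpG+SWNT/LP against SWNT/LP they were 2 to 4, where 2517 to 5036 were called. Leaving out an untreated K-Luc library left 1 in that group, so the counts against untreated cells are not given. In RAW-Blue each such fit left 1 library in a group. The number of all genes called also moved widely between these fits, so their counts of members are not read.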
